A study of Caenorhabditis elegans with 2 samples.

Results

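The 216 regions described here are weak candidate binding regions of the transcription factor MDL-1 that carried the E-box CACGTG close to the point of highest signal. They were chosen from a list of 30000 regions made from the pooled reads of both replicates, sorted by the authors' signal value. The top of that list is the authors' optimal list, which passed their threshold on the irreproducible discovery rate (IDR), a measure of how well regions recur between replicates. From the 3228 regions that follow it, 3 times as many as it holds, those were kept in which CACGTG lay entirely within 50 bp of the summit, the base at which the authors' file places the highest signal of a region. The 216 made up 6.69% of the 3228. The other 3012 regions of the same ranks, without the word, and the 237 optimal peaks with it are the sets they are compared with. The 3228 ranks are also described as an upper, a middle and a lower bin of equal size.

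The series is a chromatin immunoprecipitation sequencing (ChIP-seq) experiment on whole Caenorhabditis elegans at the L2 larval stage, with both sexes pooled. Both samples were biological replicates of 1 group, so no comparison between conditions could be made. All animals were of strain OP355, which carries the mutation unc-119(tm4063) on chromosome III and the integrated transgene wgIs355 aimed at mdl-1. The labels for antibody, strain and experiment name MDL-1, whereas another label on both samples names KLU-1, a zinc-finger protein, as the one carrying the GFP-FLAG tag. A transgenic line without the tag was not analysed here. Read counts were not analysed here either, so the sequencing depth is unknown, and binding in different tissues of the animal cannot be told apart.

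MDL-1 is the worm's Mad-like protein, a basic helix-loop-helix leucine-zipper factor that binds DNA as a dimer with the Max-like protein MXL-1. Mad and Max proteins recognise the palindromic E-box CACGTG, and in mammals Mad proteins compete with Myc for Max and repress transcription. Other worm factors of this class, among them MML-1, MXL-2 and MXL-3, and further helix-loop-helix proteins can bind the same word, so the E-box alone does not name the protein that was bound.

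The sequences that follow show the E-box, in capitals, with 12 bases to each side, in regions that recur in the results. They are from the plus strand of the ce11 (WBcel235) reference, read 5′ to 3′. The first group lies in promoter windows, defined here as 1000 bp upstream to 200 bp downstream of an annotated protein-coding start, of genes at the stronger end of the 216.
R07E3.4, chrX:10332501-10332530: ccacgaaccgagCACGTGaatggcagctga
tre-2, chrIV:6879111-6879140: tcacaggcaattCACGTGaagcagagcatg
sar-1, chrIV:4513520-4513549: gacacgcgcttcCACGTGtacccgaaaaga
suox-1, chrX:15497157-15497186: ctcagtttctgcCACGTGacgttttttttt
panl-3, chrIII:9818987-9819016: tcggccatcgttCACGTGtccccacgatat
mak-1, chrII:8744898-8744927: gtatgttgtagcCACGTGggggttttcgga

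The next group lies in promoter windows of all 8 nuclear hormone receptor genes that had one of the 216 regions. By count this family had the most of them among the lists examined, on a list of 269 genes. Some shorter lists had higher shares, on 1 or 2 genes each.
nhr-133, chrV:2212080-2212109: ttatacataaaaCACGTGaaagaacgatga
nhr-107, chrV:6997726-6997755: tggttgaagaaaCACGTGcactaattctca
nhr-34, chrIV:9672676-9672705: aaagcgttacatCACGTGgtctttcgatga
nhr-87, chrIV:1623859-1623888: acaaattaccccCACGTGactacttgaaac
nhr-88, chrII:2975974-2976003: tttttttgccgaCACGTGaccgtataaaat
nhr-25, chrX:13009409-13009438: gaagccaactgcCACGTGgatcgtacttgc
nhr-121, chrIII:2455156-2455185: ttttgtagcactCACGTGtgtgtgtgcttc
nhr-230, chrV:18846884-18846913: gctcacagccggCACGTGgaagacactttg

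Most regions held the E-box once, and 4 of the 216 held it more than once. The region of rank 1344, in intergenic sequence, is shown with 50 bases to each side of its summit because its copies lie only 5 bases apart.
rank 1344, chrIV:1454320-1454420: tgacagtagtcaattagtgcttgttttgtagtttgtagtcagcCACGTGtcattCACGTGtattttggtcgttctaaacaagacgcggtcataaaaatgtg

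In the pooled list, the E-box remained more frequent at summits than beside them well below the IDR threshold. CACGTG was within 50 bp of 216 of the 3228 summits, whereas equally wide windows placed 300 bp to the left and to the right held it in 61 and 61 regions. The count at summits was thus 3.54 times that in the flanks. It was unevenly spread over the ranks. In the upper bin there were 123 regions with the word, 11.4% (95% interval 9.59 to 13.5), against a flank mean of 1.67%. In the middle bin there were 52, 4.83% (3.63 to 6.29), against 2.32%. In the lower bin there were 41, 3.81% (2.75 to 5.13), against 1.67%. In the optimal list the share was 22%, and the 23 further bins of that size held between 11 and 35 such regions each. The 216 summits covered 220 E-boxes, 1.24% of the 17729 in the 6 nuclear chromosomes. All intervals here are exact (Clopper-Pearson) 95% intervals and cover counting error only.

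**Figure D1:**
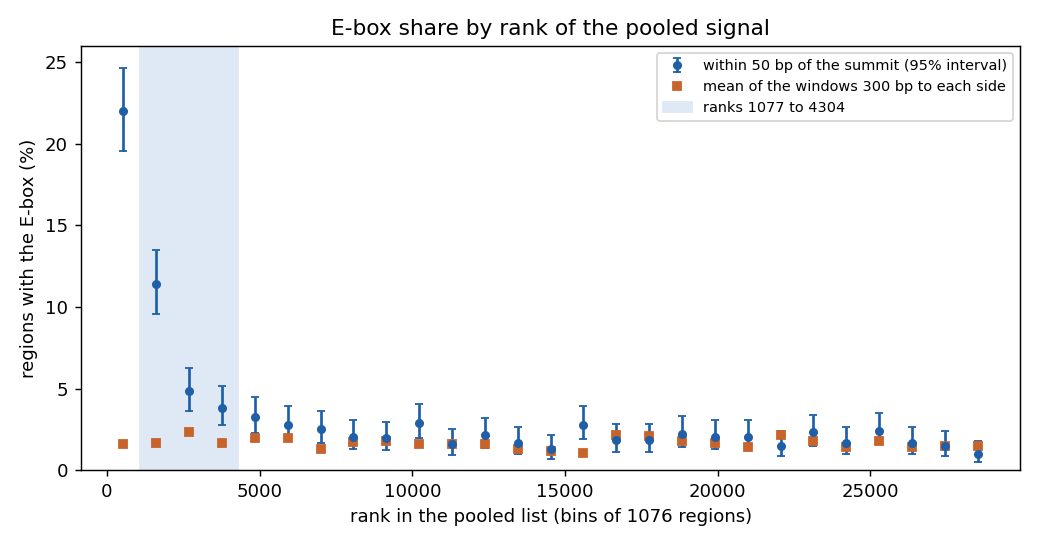
Share of regions with the E-box (%, vertical axis) in bins as large as the optimal list by rank of the pooled signal (horizontal axis), with 95% intervals, within 50 bp of the summit and as the mean of both flank windows; the shaded ranks are those of the 216 regions. The summit share is 22% in the optimal list and 3.81% in the lower of the 3 shaded bins, where the flank share is 1.67%.

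Each replicate's own list showed the same decline. In replicate 1's list the share with the E-box was 10.3%, 5.58% and 3.72% in the upper, middle and lower bins. In replicate 2's list it was 6.97% (5.52 to 8.66), 2.88% (1.97 to 4.06) and 2.32% (1.51 to 3.41) in those bins. Replicate 2's flank means there were 1.58%, 2.18% and 1.53%, so its intervals in the middle and lower bins included the flank value. Replicate 1's share was the higher in all 3 bins, and the flank means of both lists lay between 1.44% and 2.18%. The rule applied to each replicate's own list gave 211 regions in replicate 1 and 131 in replicate 2. Of the 216 pooled regions, 90 overlapped replicate 1's set, 41.7% of the 216 and 42.7% of that set. Replicate 2's set was overlapped by 69, 31.9% of the 216 and 52.7% of that set. The replicates' sets shared 33 regions, 15.6% of replicate 1's and 25% of replicate 2's.

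The signal that chose the regions covered a narrow range. It ran from 26 to 48.2 in the authors' units with a median of 34.8, against a median of 86.8 in the optimal peaks with the E-box. Every one of the 216 was 340 bp wide. The deposited −log10 q-value ran from 0.435 to 2.64, with a median of 1.18. At the upper limit, the first region after the optimal list had a signal of 48.27 and the last optimal peak 48.28. At the lower limit, the last of the 3228 regions and the next one both had 25.94. None of these held the word. The strongest member had rank 1081 and a signal of 48.2, and the weakest optimal peak with the word had rank 1072 and 48.5. The weakest member had rank 4267 and 26, and the next region with the word below the lower limit had rank 4341 and 25.9. Near the distance limit, 30 of the 216 had the middle of the nearest E-box 37.5 to 47.5 bp from the summit, and 22 further regions of these ranks missed the limit by at most 10 bp.

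Over the 3 bins together, E-boxes within the allowed 50 bp lay closer to the summit than flank-window E-boxes did to the window's centre. Taken singly, only the upper bin showed this clearly. The median distance from the middle of the word to the summit was 19.5 bp, with quartiles at 8.5 and 30.5 bp. The E-boxes in the flank windows lay at a median of 25.5 bp from the window's centre, and those of the optimal peaks at 15.5 bp from the summit. Of the 220 E-boxes, 65 were within 10 bp of the summit, 29.5% (23.6 to 36), against 16.3% (10.2 to 24) of the 123 in the flanks and 33.6% of the 250 in the optimal peaks. Evenly spread positions would put 20.8% there. By rank, the share within 10 bp was 35.7% (27.4 to 44.7) in the upper bin, 26.4% (15.3 to 40.3) in the middle bin and 14.6% (5.57 to 29.2) in the lower bin. The intervals of the middle and lower bins included both the flank share and the evenly spread value. The median distance was 16.5 bp in the upper bin and 23.5 bp in the middle bin. In the lower bin it was 26.5 bp, no closer than in the flank windows. The suox-1 word lay 3.5 bp from its summit and the tre-2 word 8.5 bp, whereas the nhr-34 word was 36.5 bp away.

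**Figure D2:**
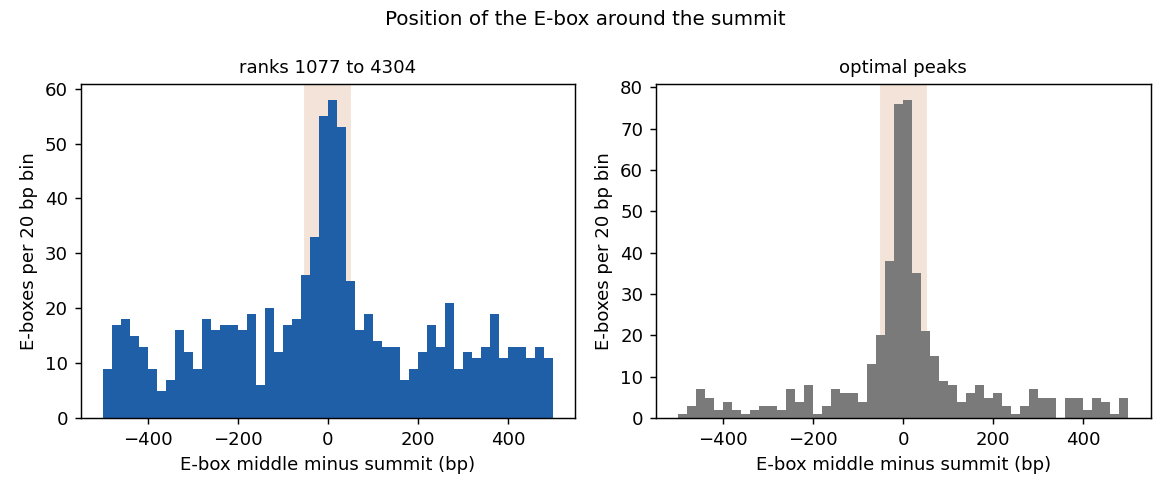
Number of E-boxes per 20 bp bin (vertical axis) by distance from the summit in bp (horizontal axis), for all 3228 regions below the optimal list and for the optimal peaks. Among the 3228 the bins next to the summit hold 55 and 58 E-boxes, against 5 to 21 in bins more than 100 bp away; the shading marks the 50 bp limit.

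Recurrence was read from each replicate's own list of 30000 regions, taking the best-ranked region that overlapped by at least 1 bp. A region was within the rank limit if it ranked no lower in its replicate's list than the last of the 3228 did in the pooled list. The pooled list came from the same reads, so recurrence describes how the signal was shared between replicates and does not check it independently. In replicate 1, 153 of the 216 overlapped a region within the rank limit, 70.8% (64.3 to 76.8), where 48% of all regions of these ranks did. In replicate 2 it was 118, 54.6% (47.7 to 61.4), where 49.8% of all did. Both replicates had such a region for 77, 35.6% (29.3 to 42.4), where 19.2% of all regions of these ranks did. Without CACGTG the share in both was 18.1% (16.7 to 19.5), and in the optimal peaks with the word it was 97.9%. A further 76 of the 216 were within the limit in replicate 1 only, 41 in replicate 2 only and 22 in neither, so that 10.2% were in neither, against 22.3% of the regions without the word. Requiring the replicate summits to lie within 50 bp of the pooled one left 15.7% in both. That share was not counted for the regions without the word, so it cannot be set against theirs. Of the 131 regions that the rule gave in replicate 2's own list, 61.1% were within the limit in replicate 1, and of replicate 1's 211, 44.5% were in replicate 2.

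Recurrence followed the pooled rank closely, and the 216 were on average stronger than the regions without the word, whose median signal was 30.2. In the upper bin both replicates had a region within the limit for 68 of 123, 55.3% (46.1 to 64.3), against 43.4% (40.3 to 46.7) of the regions without CACGTG. In the middle bin it was 8 of 52, 15.4% (6.88 to 28.1), against 8.79% (7.13 to 10.7). In the lower bin it was 1 of 41, 2.44% (0.0617 to 12.9), against 3.86% (2.78 to 5.23). The intervals of both sets overlapped in every bin, though only narrowly in the upper one. Overlap does not by itself show equal shares, and the difference was not tested.

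Turned round, the share of regions with the E-box differed with recurrence. Among the 621 regions of these ranks that were within the limit in both replicates, 77 had CACGTG at the summit, 12.4% (9.91 to 15.3), against 2.58% in the flanks. It was 8.19% of those in replicate 1 only, against 1.78% in the flanks, and 4.16% of those in replicate 2 only, against 1.57%. Among the 694 regions in neither it was 3.17% (2.0 to 4.76), against 1.87%. Within the upper bin alone these shares were 14.1%, 11.5% and 6.88% in both, in replicate 1 only and in replicate 2 only, and 1 of 25 regions in neither. In the middle bin they were 8.16% (3.59 to 15.5), 6.69% and 3.6%, and 2.61% in neither. The flank share of those in both was 5.61% there. In the lower bin they were 2.44%, on 1 of 41 regions, 6.07% and 2.87%, and 3.42% in neither. The order seen in the upper bin was thus not kept in the lower one.

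**Figure D3:**
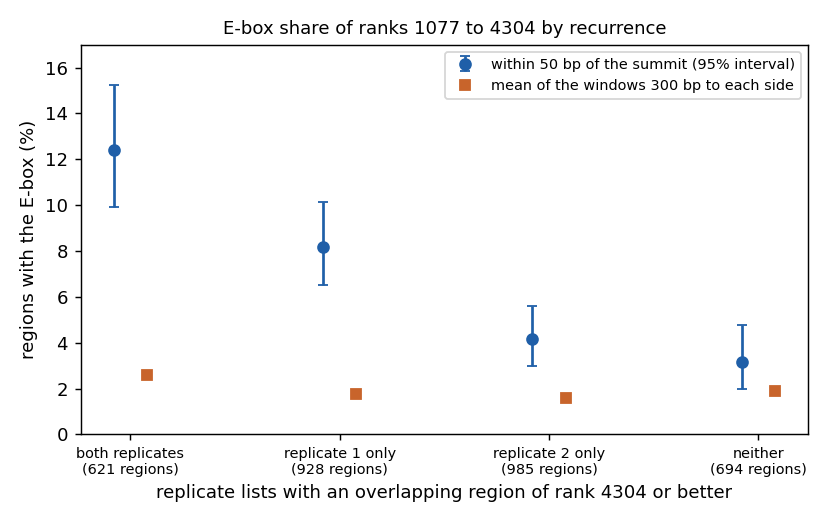
Share of regions with the E-box (%, vertical axis) among the 3228 regions, by the replicate lists in which they were within the rank limit (horizontal axis), within 50 bp of the summit with 95% intervals and as the flank mean. The summit share is 12.4% in both replicates and 3.17% in neither, and the flank shares lie between 1.57% and 2.58%. The groups also differ in pooled rank, and the lower bin alone does not keep this order.

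The 216 ranked better in replicate 1 more often than in replicate 2. The better rank was replicate 1's for 133, 61.6% (54.7 to 68.1), and replicate 2's for 81. For the regions without the word it was replicate 1's in 47.6% (45.8 to 49.4), and for the optimal peaks with the word in 52.3% (45.8 to 58.8). Among those listed, the median rank was 2193 in replicate 1 and 3208 in replicate 2. Anywhere in the lists of 30000, replicate 1 held 206 of the 216 and replicate 2 held 200, and both held 191. The 1 region in neither list, of rank 4231 on chromosome V, had its summit in a coding exon with the start of C25E10.4 nearest. Where a replicate region overlapped, its summit was within 50 bp of the pooled summit for 144 of 206 in replicate 1, 69.9%, and for 143 of 200 in replicate 2, 71.5%.

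**Figure D4:**
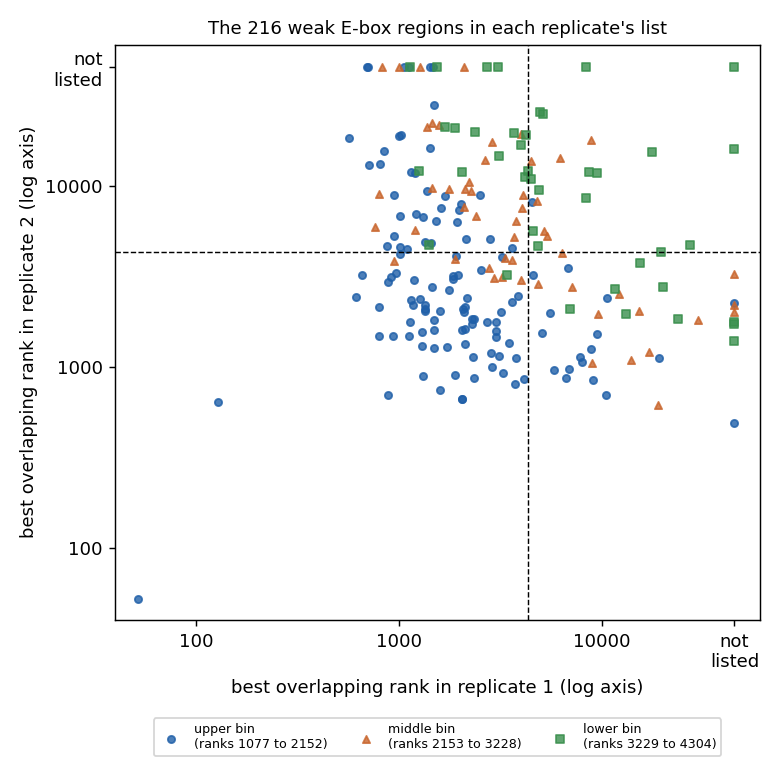
Best overlapping rank in replicate 1 (horizontal, log axis) and in replicate 2 (vertical, log axis) for each of the 216 regions, marked by pooled rank; dashed lines stand at the rank limit and regions absent from a list sit at "not listed". The 77 regions within the limit in both replicates are in the lower left, 68 of them from the upper bin.

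Only 3 of the 216 ranked within the length of the optimal list in both replicates, and 2 of these lay beside a stronger peak. The region of rank 1381 on chromosome X ranked 52 in replicate 1 and 52 in replicate 2, but its summit was 202 bp from an optimal summit. The region of rank 1508 on chromosome V ranked 128 and 638, and its summit was 200 bp from an optimal one. Whether the overlapping replicate regions were those of the neighbouring peak was not tested. The remaining region, of rank 1286, had replicate ranks of 883 and 702 and lay 218800 bp from the nearest optimal summit, with the nearest gene start 2522 bp away. In all, 3 of the 216 overlapped an optimal peak, 16 had an optimal summit within 1 kb, and 60 within 5 kb, 27.8% (21.9 to 34.3), against 20.4% (19 to 21.9) of the regions without the word.

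Most of the regions lay in intergenic sequence and introns, and 43.5% in promoter windows. Promoter windows held 94 of the 216 summits (36.8 to 50.4), where 40.4% of all regions of these ranks were in one. The share was 40.1% (38.4 to 41.9) without CACGTG and 46% (39.5 to 52.6) in the optimal peaks with it, so that the intervals of all 3 sets overlapped. A narrower window, 500 bp upstream to 100 bp downstream, held 28.2% of the 216. By annotation of the summit base, 105 were intergenic, 74 in introns of protein-coding genes, 7 in 3′ UTRs, 6 in 5′ UTRs and 6 in genes of another biotype. Summits lay at a median of 960.5 bp from the start of a protein-coding transcript, with 54 within 250 bp of one and 12 more than 5 kb away.

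Coding exons held 18 of the 216 summits, 8.33% (5.01 to 12.9), against 4.18% (3.5 to 4.96) of the regions without the word and 1.27% (0.262 to 3.65) of the optimal peaks with it. The share was 4.07%, 11.5% and 17.1% in the upper, middle and lower bins, against 1.89%, 4.79% and 5.7% without the word. These shares of the 216 rest on few regions. The upper bin had 5 of 123 (1.33 to 9.23) and the middle bin 6 of 52 (4.35 to 23.4), with overlapping intervals. Among all 144 coding-exon summits of these ranks the E-box share was 12.5% (7.58 to 19), against 0.694% in their flanks. That flank value is a mean of 1 region, and the flank windows were not limited to coding exons. Examples in the named families were the summits near the starts of nhr-34, nhr-25, nhr-230 and gpi-1. Chosen after their values were seen, other coding-exon summits had as nearest start that of the collagen genes col-90, at rank 1207, dpy-7, at rank 1789, and rol-6, at rank 3952. Replicate 1 ranked these 1015, 2517 and 17613, and replicate 2 ranked them 6798, 8847 and 15269, so that all 3 were past the rank limit in replicate 2. In promoter windows the cuticle collagen list had 0 of 194 genes with one of the 216 regions.

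Summits in masked repeats were fewer among the 216, at 34 or 15.7% (11.2 to 21.3), than without the word, at 33.2% (31.5 to 34.9), and the optimal peaks with the word had 11.8% (8.0 to 16.6). The median G and C content within 50 bp was 41.6%, against 37.6% without the word and 47.5% in the optimal peaks with it. CACGTG itself has a G and C content above these medians, and its part in them was not tested.

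Genes for small RNAs were rarely close. Within 200 bp of a summit there were snoRNA genes for 2 of the 216 and no tRNA, snRNA, miRNA or rRNA gene, where a count of 0 allows a share of up to 1.69% by the exact interval. The regions without the word had 85 near tRNA genes, 2.82%, and 34 near snoRNA genes, 1.13%. The snoRNA share of the 216 was 0.926% (0.112 to 3.3), which includes that value. For snRNA, miRNA and rRNA genes the shares without the word were 0.365%, 0.266% and 0%. These are below the bound of 1.69%, so the counts of 0 do not set the 216 apart. Genes for piRNAs were near 0 of the 216 and near 73 regions without the word, 2.42%. The snoRNA genes near the 216 were T28B8.11, 32 bp from the summit of rank 2016, and Y43F8C.22, which covered the summit of rank 3130. Genes annotated only as ncRNA were near 15, 6.94% (3.94 to 11.2), against 11.2% (10.1 to 12.4) without the word.

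Chromosome X held 48 of the 216, 22.2% (16.9 to 28.4), where 22.9% of all regions of these ranks lay there. X has 13.7% of the protein-coding genes, 17.7% of the sequence and 13.9% of the genome's E-boxes. There were 1.95 of the regions per 100 E-boxes on X, against 0.975 to 1.23 on the other chromosomes. The other chromosomes held between 31 and 38 each. The share of regions of these ranks with the E-box ran from 6.36% to 7.79% over the 6 chromosomes, with X at 6.5%.

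The base next to the E-box differed from that of the optimal peaks. A G stood immediately before CACGTG on at least 1 strand in 65 of the 220 E-boxes, 29.5% (23.6 to 36). It did so in 47.6% (41.3 to 54) of the 250 E-boxes of the optimal peaks, in 21.1% (14.3 to 29.4) of those in the flank windows and in 24.5% of those in the genome. The share was 31%, 24.5% and 31.7% in the upper, middle and lower bins. With a G on both strands, as GCACGTGC, there were 7 E-boxes, 3.18% (1.29 to 6.45), against 8.4% in the optimal peaks and 2.35% in the genome. GCACGTGA, counted with its reverse complement, made up 4.09% (1.89 to 7.62), against 12% in the optimal peaks and 6.62% in the genome. CCACGTGG was the most frequent of the 10 forms with 35, 15.9% (11.3 to 21.4), against 12% in the optimal peaks and 16.9% in the genome. The R07E3.4 and nhr-230 sequences shown above carry the G on their plus strand, and the mak-1 sequence has the CCACGTGG form.

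**Figure D5:**
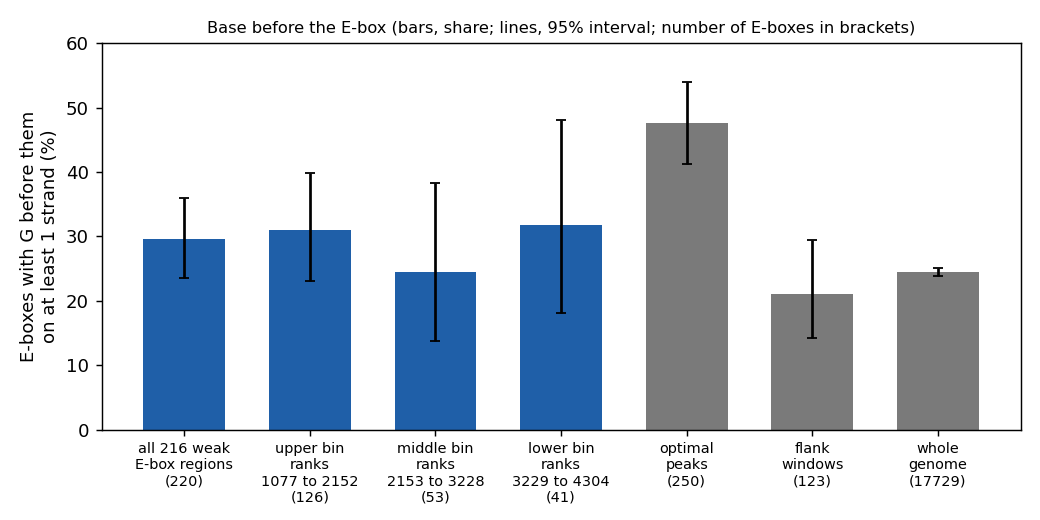
Share of E-boxes with a G immediately before them on at least 1 strand (%, with 95% intervals) in the 216 regions by rank, the optimal peaks, the flank windows and the genome. The 216 regions lie at 29.5%, below the 47.6% of the optimal peaks, and the genome is at 24.5%.

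Words other than the E-box were also counted within 50 bp of the summits, on both strands. GATAAG, the core recognised by GATA factors, was in 22 of the 216, 10.2% (6.49 to 15), and in 5.56% of their flanks. It was in 3.75% (3.10 to 4.49) of regions without the E-box and in 6.75% (3.91 to 10.7) of the optimal peaks with it. The overlapping word TGATAA was in 33, 15.3% (10.8 to 20.8), and in 11.3% of their flanks. It was in 7.34% of regions without the E-box and in 11.8% (8 to 16.6) of the optimal peaks with it, and 14 of the 216 held both words. GACGCA was in 11, 5.09% (2.57 to 8.93), against 7.44% without the E-box and 16.5% (12 to 21.8) in the optimal peaks with it. GAGAGA was in 41, 19% (14 to 24.9), against 16.6% and 23.6%. CACGTG ends in TG, so an E-box followed by ATAA holds the start of TGATAA. Followed by ATAAG, as at best-1, it holds the start of GATAAG too. The rule put an E-box in each of the 216 windows, and the part of this overlap in the shares was not tested. A match to a word is not evidence that a factor was bound.

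The 94 promoter summits fell in the windows of 97 of 19973 protein-coding genes, 0.486% of them. Windows of 2 or more genes held 7 of the summits, so these do not single out 1 gene. The narrower window gave 62 genes, and the rule applied to replicate 2's list alone gave 63. Of the 97 genes, 8 also had an optimal peak in their promoter window, 8.25%, against 614 of all genes, 3.07%. An optimal peak with the E-box was there for 4 of the 97, 4.12%, against 122 of all genes, 0.611%. No test was made of either difference.

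Among the strongest of the 216 with a promoter gene, the replicates often ranked the region differently. The scale of the signal is not stated for either list, so ranks are given beside it. R07E3.4 had a signal of 19.2 in replicate 1, at rank 2050, and of 33.1 in replicate 2, at rank 660. A second of the 216, 269 bp away at rank 1941, matched the same replicate regions, so the pair is not 2 separate findings in the replicates. For tre-2, which encodes a trehalase, the enzyme that splits the storage sugar trehalose, the signals were 19.9 and 28.6, at ranks 1895 and 898. T09F3.2 and T09F3.7 shared a region with 32.2 and 23.3, at ranks 797 and 1479. These 3 regions were within the rank limit in both replicates, with replicate 1 the lower signal at R07E3.4 and tre-2.

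Replicate 1 gave the better rank at T09F3.2 and also at M01H9.3, panl-3 and F25B4.7, other promoter genes among the 15 strongest. M01H9.3 had 36.2 in replicate 1 and 18.3 in replicate 2, at ranks 656 and 3225, and a second of the 216 lay 464 bp from its summit. The M01H9.3 promoter window also held an optimal peak. For panl-3, which encodes the PAN3 subunit of a poly(A) nuclease, the signals were 37.6 and 19.9, at ranks 617 and 2418. F25B4.7 had 29.9 and 18.5, at ranks 916 and 3113. Replicate 2 gave the better rank at cpr-9, a cathepsin B-like protease gene among the 15, which had 18.1 and 25.6, at ranks 2330 and 1129, with its summit 37 bp from the start and an optimal summit 846 bp away.

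The replicates ranked a few regions almost alike. At suox-1, the gene of sulfite oxidase, the signals were 24.2 in replicate 1 and 24.3 in replicate 2, at ranks 1298 and 1301, and the summit lay in a 3′ UTR 387 bp from the suox-1 start. At sar-1, which encodes the small GTPase that starts COPII coat assembly on the endoplasmic reticulum, they were 22.4 and 24.5, at ranks 1486 and 1264. The mak-1 region, near the gene of a MAP kinase-activated kinase, had 23.9 and 28.6, at ranks 1320 and 891, but its summit was 214 bp from an optimal summit. At acs-13, an acyl-CoA synthetase gene, they were 24.1 and 22.8, at ranks 1306 and 1562. These 4 were among the 10 regions with the best rank in the replicate where they ranked worse.

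Nuclear hormone receptors, a large family of ligand-regulated transcription factors in nematodes, had promoter regions at 8 of 269 genes, 2.97% (1.29 to 5.78), where 0.486% of all protein-coding genes had one. Any region of these ranks, with or without the E-box, was in the promoter window of 37 of the 269 genes, 13.8%, against 1481 of all 19973 genes, 7.42%. An optimal peak was there for 13 of the 269, 4.83%, against 614 of all genes, 3.07%. No test was made, because the lists were chosen with results known. At nhr-133 the signals were 18.9 in replicate 1 and 24 in replicate 2, at ranks 2120 and 1336, and the summit was 15 bp from the start in a 5′ UTR. At nhr-34 they were 18.9 and 22.6, at ranks 2125 and 1613. These were the 2 of the 8 within the rank limit in both replicates. At nhr-107 they were 14.1 and 18.4, at ranks 4603 and 3204, which put replicate 1 just past the limit.

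The other receptor genes had support from a single replicate or from none at that rank. At nhr-87 replicate 1 had a signal of 22.5 at rank 1468, and replicate 2's list had no overlapping region. At nhr-25, the NR5A-family receptor gene needed for moulting and epidermal development, replicate 1 had 19 at rank 2090, and replicate 2's list again had none. The remaining 3 were beyond the naming rule and were added after their values were seen, as was nhr-25. At nhr-88 replicate 2 had 26.1 at rank 1087 and replicate 1 had 9.24 at rank 13949. At nhr-121 the ranks were 4455 in replicate 1 and 10936 in replicate 2, and at nhr-230 they were 4202 and 11175.

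Genes of central metabolism were counted from 3 lists, and 0.486% of all protein-coding genes had one of the regions. The lists had 1 or 2 such genes each. The interval lay above the share over all genes for the citric acid cycle, on 2 genes, and included it for glycolysis and for lipid metabolism. The differences were not tested, because the lists were chosen with results known. Any region of these ranks, with or without the E-box, was in the promoter window of 5 of 23, 7 of 23 and 8 of 68 genes of these lists. Of all genes, 7.42% had such a region. With the E-box, the citric acid cycle had 2 of 23 genes, 8.7% (1.07 to 28). These 2 genes were idhg-1, which encodes a subunit of the NAD-dependent isocitrate dehydrogenase, and ogdh-2. At idhg-1 the signals were 22.3 in replicate 1 and 22.7 in replicate 2, at ranks 1497 and 1597, with the summit 54 bp from the nearest start, in a window shared with mlcd-1. At ogdh-2 they were 14.8 and 11, at ranks 3990 and 16820. Glycolysis and gluconeogenesis had 1 of 23, 4.35% (0.11 to 21.9), which was gpi-1, for glucose-6-phosphate isomerase, at ranks 2862 and 17339. The lipid metabolism list had 1 of 68, 1.47% (0.0372 to 7.92), which was acs-13. Of these list genes, only idhg-1 and acs-13 were within the rank limit in both replicates. The lipid list was made from a pattern of gene names. It left out lipid genes that had one of the regions, such as fasn-1 and pmt-1, which are named further below.

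Single genes came from 2 further lists. Insulin signalling to the transcription factor DAF-16 had 1 of 14, akt-2, which encodes an Akt kinase, with a signal of 16.4 in replicate 1 at rank 3079 and no overlapping region in replicate 2. Aminoacyl-tRNA synthetases had 1 of 32, hars-1, for histidyl-tRNA synthetase, with 18.6 in replicate 1 at rank 2210 and 13 in replicate 2 at rank 10495. The other 21 lists had none, where 0.486% of all genes had one of the regions. Among them, cytosolic ribosomal proteins had 0 of 80 genes (exact upper bound 4.51%). Of the 80, 28 had a region of these ranks and 16 an optimal peak, where 7.42% and 3.07% of all genes did. Chemoreceptors had 0 of 1301 (upper bound 0.283%). They also had few regions of these ranks with or without the E-box, at 20 of the 1301 genes, against 1481 of all 19973. Cuticle collagens had 0 of 194 (upper bound 1.88%), autophagy genes 0 of 26 (13.2%), heterochronic genes 0 of 14 (23.2%) and histones 0 of 50 (7.11%). Apart from the chemoreceptors, each of these upper bounds lay above the share over all genes, so these counts of 0 do not set the lists apart from it.

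Genes of the MDL-1 network were too few for their promoter counts to be read. Of 8 Max-like, Mondo and related genes 0 had one of the 216 regions in a promoter window (exact upper bound 36.9%), and likewise 0 of 33 other helix-loop-helix genes (10.6%), where the share over all genes was 0.486%. No region lay within 20 kb of mdl-1, mxl-1, mxl-2, mml-1, klu-1 or unc-119. Near mxl-3, which encodes a Max-like factor with roles in fasting, there were 2. The region of rank 1457 lay 2165 bp downstream of the mxl-3 start, past the end of the gene, with signals of 23.9 in replicate 1 and 14.9 in replicate 2, at ranks 1317 and 6694. The region of rank 1765 lay 4084 bp upstream of it, with 16.5 and 23.4, at ranks 3026 and 1457.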

How the data were processed

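Per the labels' file texts, the authors deposited 30000 regions per replicate, 30000 from the pooled reads and an optimal list that passed IDR. The deposited signal comes from the authors' caller on an unstated scale, and the q-value is deposited as −log10. For the aligner, the caller and the IDR cutoff, the sources used here state nothing. In the ce11 lists used, the optimal list was ranks 1 to 1076 of the pooled signal. The 3 bins were ranks 1077 to 2152, 2153 to 3228 and 3229 to 4304, and the rank limit was 4304.

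Counting used Python 3.11.15, pandas 2.3.3 and scipy 1.17.1, gene models of Ensembl release 115 (WBcel235) and the RefSeq genome of that assembly, and was checked on simulated data. Where annotations overlapped, a summit went to the coding exon first, then to a UTR, an intron or a gene of another biotype. The regions, gene lists and alternatives were chosen with earlier results of these data known, so no test was made. Genes were named if they had the promoter summit of 1 of the 15 strongest regions or of the 10 with the best rank in their worse replicate, were among up to 4 per list with the strongest region, were small RNA genes within 200 bp, or were mdl-1, its relatives mxl-1 to mxl-3 and mml-1, klu-1 or unc-119. Of the list symbols, tif-1a, atg-11 and apm-2 matched no gene.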

Additional observations from a re-analysis of the deposited data

How the results depend on the processing

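Of 44 alternatives over 8 results, 27 stayed within the spread set for them and 17 moved. The number of regions was 123 in the upper bin alone, 92 in the 3 bins after the lower one, 121 with the E-box within 25 bp, and 131 to 211 when each replicate was left out. Recurrence in both replicates was 55.3% in the upper bin, 2.17% in the 3 bins after the lower one, 15.7% when replicate summits had to lie within 50 bp, 1.39% at replicate ranks within the length of the optimal list and 88.4% anywhere in both lists. With each replicate left out it was 44.5% to 61.1%, which counts the other replicate's regions found in the one left out. The promoter share was 28.3% in the 3 bins after the lower one, 28.2% with a window of 500 bp upstream to 100 bp downstream and 61.6% with 2000 bp upstream. The gene count was 62 in that narrower window and 63 to 91 with each replicate left out. The share of E-boxes with G before them was 31.8% to 36.8% with each replicate left out. Leaving out replicates for the flanking bases was planned, while the choice of G as their summary and the leave-one-out values of the annotation classes were added after the data were seen. The cause was not tested. Leaving out 20 kb around mdl-1 and unc-119 changed no member, because none lay there, so this alternative could not move a result. It is counted among the 27 for the number of regions and for the chromosome share. No paired analysis was possible because all samples belong to 1 group. The unknown depth limits what weak regions can show.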

Other observations

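Some single genes with one of the 216 regions in their promoter window are named here. They were picked with the values in view, belong to no list and stand for no pathway. The region shared by sec-23, a gene of a vesicle coat subunit, and dcs-1 had a signal of 34.4 in replicate 1 at rank 714 and of 12 in replicate 2 at rank 13010. It was within the rank limit in replicate 1 only. At sec-12, an exchange factor gene, the signals were 22.4 and 21.7, at ranks 1482 and 1805, within the limit in both. At pek-1, the PERK kinase gene, they were 23.6 and 21.0, at ranks 1346 and 2021. At fasn-1, the fatty acid synthase gene, they were 13.9 and 14, at ranks 4783 and 8229. At lin-39, a Hox gene of the mid-body, the signals were 14.8 and 10.4, at ranks 4001 and 19288. The pmt-1 region, near the gene of a phosphoethanolamine methyltransferase of phosphatidylcholine synthesis, held the E-box more than once and had 25.4 and 14.7, at ranks 1210 and 6976.

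The 216 regions were mostly scattered, and 5 pairs had summits within 1 kb of each other, 269 to 646 bp apart. The pairs lay near R07E3.4, M01H9.3, sfxn-1.5, nex-2 and tir-1. At sfxn-1.5, a sideroflexin gene, the regions of ranks 1243 and 1608 ranked 3243 and 3015 in replicate 1 and 921 and 1760 in replicate 2. At nex-2, an annexin gene, the region of rank 3656 was at rank 1536 in replicate 1 and absent from replicate 2's list, while that of rank 3851 was at rank 11570 in replicate 1 and 2673 in replicate 2.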
